A study of Mus musculus with 6 samples.

Results

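The genes described here are 10 components of the bone morphogenetic protein (BMP) pathway: the ligands Bmp4 and Bmp7, the receptors Bmpr1a and Bmpr2, the signal transducers Smad1, Smad5 and Smad6, and the target genes Id1, Id2 and Id3. They were taken by gene symbol from a table of RNA-seq counts for 52636 mouse genes, in which all 10 had an entry. The RNA came from embryoid bodies (EBs), aggregates in which embryonic stem cells (ESCs) begin to differentiate, and was collected after 3 days of differentiation. Of the 6 EB samples, 3 came from the parental E14 mouse ESC line (WT) and 3 from a Tnfaip2-/- line, which was expanded from 1 CRISPR/Cas9-edited clone with a frameshift and a premature stop codon in Tnfaip2. EBs of both genotypes formed in hanging drops of ESC medium and were then plated on gelatin in a medium without leukemia inhibitory factor, the cytokine that holds mouse ESCs undifferentiated. Totals were 22987433, 22489903 and 23804489 counts for WT and 22480962, 21765931 and 21986960 counts for Tnfaip2-/- EBs. Levels are given as counts per 1000000 counts of the library (CPM) after TMM scaling, which corrects for differences in library composition, and means are ± SD (n = 3 samples per genotype). The paper calls the replicates biological, the labels do not say how they were separated, and p-values measure only the spread between these samples of 1 line per genotype. With 1 clone, effects of the Tnfaip2 genotype and of clonal origin cannot be told apart.

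BMPs are secreted ligands of the TGFβ family that bind a complex of type I and type II serine/threonine kinase receptors. The type I receptor phosphorylates SMAD1, SMAD5 and SMAD9, which join SMAD4, enter the nucleus and activate target genes such as the Id genes, whereas SMAD6 and SMAD7 inhibit the pathway and are themselves induced by it. ID proteins lack a DNA-binding domain and hold E proteins, the dimerization partners of tissue-specific bHLH factors, in inactive complexes. In mouse ESC cultures BMP signals act with leukemia inhibitory factor to restrain neural differentiation, and in the gastrulating embryo they pattern the mesoderm and extraembryonic tissues.

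The gene targeted in the knockout line was barely detected in either genotype. Tnfaip2 (ENSMUSG00000021281, chromosome 12, 111442469 to 111455018, forward strand) had 7, 4 and 7 counts in WT EBs and 0, 2 and 2 counts in Tnfaip2-/- EBs, and did not reach the expression filter. Each Tnfaip2-/- sample was at or under 3 counts and below each WT sample, which is the direction of the labels, although a frameshift need not lower the number of reads.

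All 10 BMP pathway genes passed the expression filter and were tested together with all other genes that did, 17849 in total. Every member had an adjusted p below 0.05 (edgeR quasi-likelihood test, Benjamini-Hochberg adjustment over all tested genes), against 67.7% of all tested genes, so that a call alone says little about a member. Among the 11895 tested genes at least as abundant as Smad6, the least abundant member, the share was 75.7%. Bmp4, Bmp7, Bmpr2, Smad6 and Id1 were higher in Tnfaip2-/- EBs, 5 of 10, against 34.0% of tested genes. Bmpr1a, Smad1, Smad5, Id2 and Id3 were lower, 5 of 10, against 33.7%. Of these, Bmpr1a (adjusted p = 0.0489, edgeR) lost its call in 9 of 14 alternative analyses. A change of at least 2-fold was found for 5 of the 10, Bmp4, Bmp7 and Smad6 upwards and Id2 and Id3 downwards, against 12.0% of all tested genes and 5.76% of those at least as abundant as Smad6. In all 10 genes the samples of the genotypes did not overlap, against 69.4% of tested genes. The median log2 fold change of the 10 genes was 0.07, and 0.00 over all tested genes. Because RNA was taken from whole EBs, fewer cells of a type and less RNA per cell cannot be told apart in any of these values.

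**Figure D1:**
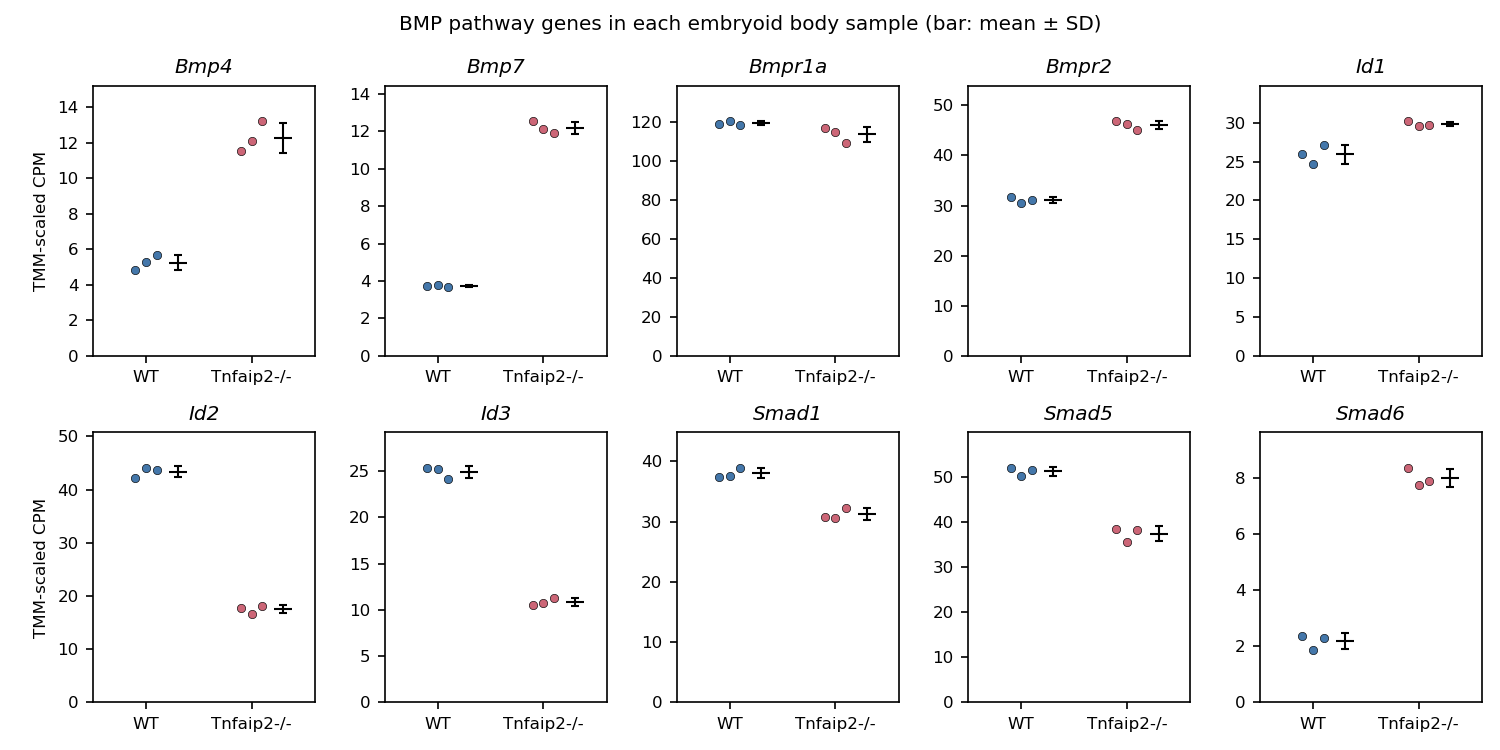
TMM-scaled CPM of each of the 10 BMP pathway genes in the 3 WT (blue) and 3 Tnfaip2-/- (red) samples, with the mean and SD beside each group and every axis starting at 0. No panel has overlapping groups; the gap is widest in relation to the level for Smad6, with 2.38, 1.88 and 2.30 CPM in WT and 8.36, 7.76 and 7.89 CPM in Tnfaip2-/- samples, and narrowest for Bmpr1a.

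The bases before the RefSeq transcript starts of these genes were searched for short elements that SMAD complexes are known to bind. RefSeq sequence (GRCm38.p6) of the 250 bases before a start was at hand for 8 of the 10 genes, and not for Bmp7 and Id1. These windows lie inside the annotated gene, after its outermost start, for Bmpr1a, Bmpr2, Id2, Id3 and the most downstream of 3 Smad5 starts, and partly inside it for Smad1 and the middle Smad5 start. The search covered both strands for GGCGCC and GGAGCC, GC-rich elements bound by BMP-activated SMADs, and CAGAC, the core SMAD-binding element. GGCGCC was present in 9.59% of all 32851 upstream windows of this length, GGAGCC in 26.0% and CAGAC in 42.2%. In the windows of the 8 genes no matches overlapped. The stretches that follow are shown because Smad6 and Bmp4 were among the genes that rose at least 2-fold and Id2 and Id3 were those that fell at least 2-fold; each runs 5′ to 3′ on the gene's own strand, and capitals mark matches to any of the motifs on either strand. The 250 bases before the start are given for Smad6 (chr9:64022060-64022309, reverse strand) and for Bmp4 (chr14:46390670-46390919, reverse strand), both upstream of the annotated gene. For Id2 a stretch of 89 bases in an intron of a longer Id2 transcript is given (chr12:25096254-25096342, reverse strand), and for Id3 a stretch of 30 bases within an annotated exon (chr4:136143623-136143652, forward strand).
Smad6: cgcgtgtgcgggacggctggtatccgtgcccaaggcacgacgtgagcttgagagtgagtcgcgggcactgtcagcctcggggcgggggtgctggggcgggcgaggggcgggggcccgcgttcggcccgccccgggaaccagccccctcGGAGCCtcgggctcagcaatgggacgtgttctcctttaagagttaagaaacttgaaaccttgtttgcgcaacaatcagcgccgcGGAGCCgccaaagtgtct
Bmp4: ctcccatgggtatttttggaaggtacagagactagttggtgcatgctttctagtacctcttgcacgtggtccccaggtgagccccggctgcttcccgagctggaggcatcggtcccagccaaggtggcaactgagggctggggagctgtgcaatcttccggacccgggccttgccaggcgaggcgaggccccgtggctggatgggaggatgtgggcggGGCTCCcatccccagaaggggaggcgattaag
Id2: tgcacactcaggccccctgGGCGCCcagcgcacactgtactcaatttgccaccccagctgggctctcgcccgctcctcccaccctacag
Id3: cctcgcatccgaGGCTCCgctgtcctcggc
Smad6 held GGAGCC at 102 and at 18 bases before the start, and Bmp4 held its reverse complement GGCTCC at 32 bases before the start. Id2 held GGCGCC at 231 bases and GGAGCC at 88 bases before the start, and Id3 held GGCTCC at 187 bases, CAGAC at 167 bases and GTCTG at 68 bases before the start. GGCGCC was also found 198 bases before the RefSeq start of Bmpr1a, 105 bases before that of Bmpr2, and 19 bases before the middle start of Smad5. The most downstream Smad5 start was preceded by GGCTCC at 117 bases and CAGAC at 21 bases. None of these letters were found in the Smad1 window or before the most upstream Smad5 start. Matches were thus present both in genes that rose and in genes that fell, and a match shows only that the letters are there.

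Both ligand genes were higher in Tnfaip2-/- EBs. Bmp4 (ENSMUSG00000021835, chromosome 14, 46383520 to 46390669, reverse strand in GRCm38) encodes a ligand required for mesoderm formation in the mouse embryo and measured 4.81, 5.27 and 5.66 CPM in the WT samples and 11.5, 12.1 and 13.2 CPM in the Tnfaip2-/- samples. The lowest Tnfaip2-/- sample was about 2 times the highest WT sample. The means of 5.25 ± 0.426 and 12.3 ± 0.855 CPM correspond to a 2.34-fold increase, a log2 fold change of 1.22 (SE 0.0925, adjusted p = 4.55e-16, edgeR). Bmp7 (ENSMUSG00000008999, chromosome 2, 172868012 to 172940321, reverse strand) encodes a ligand that can pair with BMP4 or BMP2 in heterodimers and measured 3.75, 3.80 and 3.70 CPM in WT and 12.5, 12.1 and 11.9 CPM in Tnfaip2-/- samples. Its replicates lay close together in both genotypes, far from those of the other. The increase was 3.25-fold, a log2 fold change of 1.70 (SE 0.0964, adjusted p = 1.75e-20, edgeR). Within a sample, Bmp7 moved up against Bmp4. The log2 ratio of their counts was -0.36, -0.47 and -0.61 in the WT samples and 0.12, 0.01 and -0.15 in the Tnfaip2-/- samples, a mean difference of 0.47 with no overlap between the genotypes. The two-sided exact permutation test of 3 against 3 gave p = 0.1, the smallest it can give, for this and each of 5 other ratios computed between pathway genes, and the Benjamini-Hochberg value over the 6 ratios was 0.1 as well, so none of the ratios could pass a threshold of 0.05.

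Other BMP ligands were present at low levels. Of 14 ligand genes, Bmp4 and Bmp7 included, 5 were tested, 4 were higher and 1 was lower, with a median log2 fold change of 0.84 against 0.00 over all tested genes. DESeq2 called 2 of them higher, and the number called lower was 2 without WT replicate 3 or without the expression filter and 0 with a filter at 1 CPM. Bmp8b, named to complete the count after its values were seen, was at 0.441, 0.491 and 0.298 CPM in WT and 0.660, 0.731 and 0.812 CPM in Tnfaip2-/- samples (log2 fold change 0.84, adjusted p = 0.0224, edgeR). The Bmp8b call was lost with DESeq2 (adjusted p = 0.18) and without WT replicate 3 (adjusted p = 0.118) or Tnfaip2-/- replicate 3 (adjusted p = 0.0805), with a range over 13 alternatives from 0.0185 to 0.18. Of its exon bases, 8.74% lie opposite Gm17244, which had 34 counts over all 6 samples, and 3.43% opposite the abundant gene Ppie. Bmp2, the closest relative of Bmp4, went the opposite way, from 0.971, 0.849 and 1.11 CPM in WT to 0.572, 0.228 and 0.406 CPM in Tnfaip2-/- samples (log2 fold change -1.26, adjusted p = 4.98e-04, edgeR). Bmp6, a relative of Bmp7, was at 0.794, 0.804 and 0.894 CPM in WT and 1.45, 1.42 and 1.44 CPM in Tnfaip2-/- samples (log2 fold change 0.79, adjusted p = 0.00268, edgeR). The groups did not overlap for either gene, but the Bmp6 call was lost with DESeq2 (adjusted p = 0.0601, range over 14 alternatives 0.00149 to 0.0601), and 5.74% of its exon bases lie opposite Txndc5, a much more abundant gene whose reads cannot be told apart there without strand. The 9 ligand genes under the filter were Bmp3, Bmp5, Bmp8a, Bmp10, Bmp15, Gdf2, Gdf5, Gdf6 and Gdf7, and Bmp15 had no count in any sample. Summed over the list, ligand CPM was 11.8, 12.5 and 12.4 in WT and 27.4, 27.3 and 28.6 in Tnfaip2-/- samples.

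The type II receptor gene Bmpr2 rose, while the type I receptor gene Bmpr1a differed little. Bmpr2 (ENSMUSG00000067336, chromosome 1, 59763400 to 59879014, forward strand), whose product binds the ligand and activates the type I receptor, measured 31.7, 30.6 and 31.1 CPM in WT and 46.8, 46.2 and 45.1 CPM in Tnfaip2-/- samples. All Tnfaip2-/- samples were above all WT samples by far more than the spread within either genotype. The increase was 1.48-fold, a log2 fold change of 0.56 (SE 0.0453, adjusted p = 3.52e-15, edgeR). Bmpr1a (ENSMUSG00000021796, chromosome 14, 34410734 to 34503341, reverse strand) encodes the type I receptor ALK3, which phosphorylates the SMADs, and measured 119, 120.4 and 119 CPM in WT and 117, 115 and 109 CPM in Tnfaip2-/- samples. The highest Tnfaip2-/- sample lay just under the lowest WT sample. Its log2 fold change was -0.07 (SE 0.0315, adjusted p = 0.0489, edgeR), and the call was lost in 9 of 14 alternative analyses, with adjusted p between 0.0173 and 0.253 over the 14. Among them were DESeq2 (adjusted p = 0.103), removal of WT replicate 1 (adjusted p = 0.0502) or 2 (adjusted p = 0.0843) or of Tnfaip2-/- replicate 2 (adjusted p = 0.066) or 3 (adjusted p = 0.208), and scaling by library size alone (adjusted p = 0.253), where the groups also overlapped. The log2 ratio of Bmpr2 to Bmpr1a counts was -1.91, -1.98 and -1.93 in WT and -1.32, -1.31 and -1.28 in Tnfaip2-/- samples, a mean difference of 0.63 (exact permutation p = 0.1).

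Receptor and co-receptor genes went both ways. All 11 genes of this list were tested, 4 were higher, 6 were lower and 1, Rgmb, did not pass the test, with a median log2 fold change of -0.11; DESeq2 called 3 lower. Genes such as Rgmb that are named only to complete a small count were chosen after their values were seen. Eng, which encodes the co-receptor endoglin, rose most in absolute level, from 12.4, 14.3 and 11.9 CPM in WT to 45.5, 45.8 and 41.8 CPM in Tnfaip2-/- samples (log2 fold change 1.79, SE 0.0599, adjusted p = 2.99e-29, edgeR); 1.51% of its exon bases lie opposite Fpgs, an abundant gene. Acvrl1 encodes ALK1, the type I receptor that works with endoglin in endothelial cells, and measured 0.485, 0.715 and 0.426 CPM in WT and 1.67, 1.37 and 1.94 CPM in Tnfaip2-/- samples (log2 fold change 1.61, adjusted p = 4.52e-07, edgeR). In both genes every Tnfaip2-/- sample was above every WT sample. The other type I receptor genes were lower: Acvr1, encoding ALK2, measured 20.3, 19.4 and 19.9 CPM in WT and 17.9, 16.9 and 16.5 CPM in Tnfaip2-/- samples (log2 fold change -0.21, adjusted p = 0.00232, edgeR). Bmpr1b, encoding ALK6, was scarce, with 2.03, 1.79 and 1.02 CPM in WT and 1.01, 1.23 and 0.992 CPM in Tnfaip2-/- samples (log2 fold change -0.57, adjusted p = 0.0278, edgeR). The Bmpr1b groups overlapped, and the call was lost with DESeq2 (adjusted p = 0.167) and without WT replicate 1, when the log2 fold change was -0.38 (adjusted p = 0.205), without WT replicate 2 (adjusted p = 0.0944), or without Tnfaip2-/- replicate 1 (adjusted p = 0.0773) or 3 (adjusted p = 0.074). Over 14 alternatives its adjusted p ranged from 0.0018 to 0.205. The co-receptor genes of the repulsive guidance molecule family with the strongest decreases were Rgma, with 5.19 ± 0.148 CPM in WT and 3.18 ± 0.533 CPM in Tnfaip2-/- EBs (log2 fold change -0.71, adjusted p = 4.31e-06, edgeR), and Hjv, encoding hemojuvelin. Hjv averaged 2.27 ± 0.426 CPM in WT and 1.49 ± 0.306 CPM in Tnfaip2-/- EBs (log2 fold change -0.61, adjusted p = 0.00531, edgeR), a call lost with DESeq2 (adjusted p = 0.0686) and without Tnfaip2-/- replicate 1 (adjusted p = 0.055), with a range over 14 alternatives from 0.00125 to 0.0686. Summed over the list, receptor CPM was 236, 239.7 and 234 in WT and 275, 273 and 264 in Tnfaip2-/- samples, and Bmpr1a was the most abundant gene.

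**Figure D2:**
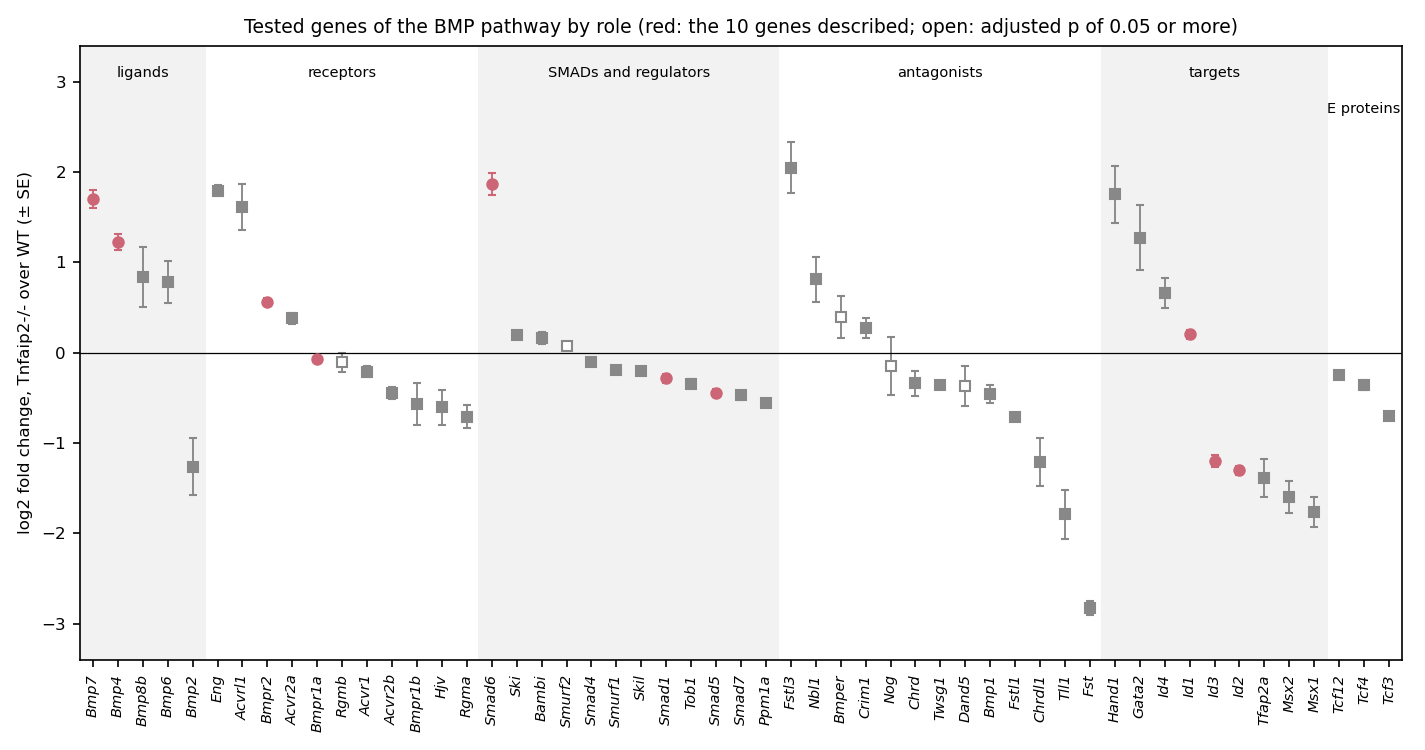
Log2 fold change (Tnfaip2-/- over WT, ± SE) of every tested gene of the BMP pathway lists, grouped by role and sorted within each group, with a gene of several lists shown once; red circles are the 10 genes described, gray squares are other genes, and open symbols did not pass the test. Ligand genes lie mostly above 0, with Bmp7 at 1.70, and E protein genes lie below 0. The other groups spread to both sides, from Fst at -2.83 to Fstl3 at 2.05.

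Smad1 and Smad5, which encode transducers of the BMP signal, were lower, and the inhibitory Smad6 was higher. Smad1 (ENSMUSG00000031681, chromosome 8, 79338395 to 79399518, reverse strand) measured 37.5, 37.6 and 38.9 CPM in WT and 30.7, 30.5 and 32.3 CPM in Tnfaip2-/- samples. The Tnfaip2-/- values were all below the WT values, with a gap larger than the spread within a genotype, and the log2 fold change was -0.28 (SE 0.0476, adjusted p = 1.02e-06, edgeR). Smad5 (ENSMUSG00000021540, chromosome 13, 56703010 to 56742377, forward strand), whose product is phosphorylated by the same receptors, measured 52.1, 50.2 and 51.5 CPM in WT and 38.6, 35.6 and 38.1 CPM in Tnfaip2-/- samples. It too was lower in each Tnfaip2-/- sample, with a log2 fold change of -0.45 (SE 0.0438, adjusted p = 1.30e-12, edgeR). The log2 ratio of Smad5 to Smad1 counts was 0.47, 0.42 and 0.40 in WT and 0.33, 0.22 and 0.24 in Tnfaip2-/- samples, a mean difference of -0.17 (exact permutation p = 0.1). Smad6 (ENSMUSG00000036867, chromosome 9, 63953076 to 64022059, reverse strand), which encodes an inhibitory SMAD that blocks type I BMP receptors and competes for SMAD1, had 54, 42 and 54 counts in WT and 190, 170 and 175 counts in Tnfaip2-/- EBs, or 2.38, 1.88 and 2.30 CPM and 8.36, 7.76 and 7.89 CPM. The lowest Tnfaip2-/- sample was more than 3 times the highest WT sample. At 3.65-fold, the increase was the largest among the 10 genes (log2 fold change 1.87, SE 0.124, adjusted p = 4.59e-18, edgeR). Among the 6 ratios computed between pathway genes, that of the inhibitor Smad6 to the transducer Smad1 moved furthest. The log2 ratio of their counts was -3.97, -4.32 and -4.08 in WT and -1.88, -1.98 and -2.03 in Tnfaip2-/- samples, a mean difference of 2.16 (exact permutation p = 0.1).

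Smad7, which encodes the other inhibitory SMAD and acts on TGFβ and BMP receptors alike, was lower, with 45.6, 45.0 and 41.2 CPM in WT and 31.7, 32.3 and 30.8 CPM in Tnfaip2-/- samples (log2 fold change -0.47, SE 0.0478, adjusted p = 4.56e-12, edgeR). Smad4, the shared partner of the receptor-activated SMADs, was slightly lower, with 117, 121 and 115 CPM in WT and 107, 111 and 112 CPM in Tnfaip2-/- samples (log2 fold change -0.10, adjusted p = 0.00529, edgeR). Smad9, which encodes the third transducer of BMP signals, was under the filter, with 5, 5 and 6 counts in WT and 6, 10 and 11 counts in Tnfaip2-/- samples. Of the 13 genes for SMADs and their intracellular regulators, 12 were tested, 3 were higher, 8 were lower and 1, Smurf2, did not pass the test, with a median log2 fold change of -0.20. Ppm1a, a phosphatase of activated SMADs, had the strongest decrease, with 148 ± 2.67 CPM in WT and 101 ± 1.18 CPM in Tnfaip2-/- EBs (log2 fold change -0.56, adjusted p = 4.42e-21, edgeR). Ski, a nuclear corepressor of SMADs, rose, with 129 ± 3.80 CPM in WT and 148 ± 0.280 CPM in Tnfaip2-/- EBs (log2 fold change 0.19, adjusted p = 1.73e-07, edgeR). Bambi encodes a decoy receptor without a kinase domain and measured 16.7, 14.2 and 15.7 CPM in WT and 16.3, 18.7 and 17.4 CPM in Tnfaip2-/- samples. The Bambi groups overlapped (log2 fold change 0.16, adjusted p = 0.0329, edgeR), and the call was lost with DESeq2 (adjusted p = 0.2), without the expression filter (adjusted p = 0.0849), and without WT replicate 2 (adjusted p = 0.231) or 3 (adjusted p = 0.0731) or Tnfaip2-/- replicate 2 (adjusted p = 0.193) or 3 (adjusted p = 0.072). Over 14 alternatives the adjusted p of Bambi ranged from 0.0118 to 0.231. Its log2 fold change ranged from 0.10, without WT replicate 2, to 0.21. Summed CPM of the list was 917, 913 and 913 in WT and 812, 809.9 and 814 in Tnfaip2-/- samples, and Skil was the most abundant gene.

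The Id genes, which are direct targets of BMP-activated SMADs, did not change in the same direction. Id1 (ENSMUSG00000042745, chromosome 2, 152736251 to 152737410, forward strand) measured 26.0, 24.7 and 27.1 CPM in WT and 30.2, 29.6 and 29.7 CPM in Tnfaip2-/- samples. The Tnfaip2-/- samples were all higher, by a small margin, with a log2 fold change of 0.20 (SE 0.0522, adjusted p = 7.40e-04, edgeR). Id2 (ENSMUSG00000020644, chromosome 12, 25093799 to 25097140, reverse strand) measured 42.2, 44.1 and 43.7 CPM in WT and 17.8, 16.7 and 18.2 CPM in Tnfaip2-/- samples. Each WT sample was more than 2 times each Tnfaip2-/- sample, and Id2 was 2.47-fold lower, a log2 fold change of -1.30 (SE 0.0525, adjusted p = 4.35e-26, edgeR). Id3 (ENSMUSG00000007872, chromosome 4, 136143497 to 136145755, forward strand) measured 25.4, 25.2 and 24.1 CPM in WT and 10.5, 10.7 and 11.3 CPM in Tnfaip2-/- samples. It was 2.29-fold lower, again with no overlap, and its log2 fold change was -1.20 (SE 0.0651, adjusted p = 3.73e-21, edgeR).

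Id1 made up a larger share of the Id reads in Tnfaip2-/- EBs. The log2 ratio of Id2 to Id1 counts was 0.70, 0.84 and 0.69 in WT and -0.76, -0.83 and -0.71 in Tnfaip2-/- samples, and Id2 passed from the more counted to the less counted gene (mean difference -1.51, exact permutation p = 0.1). For Id3 to Id1 the log2 ratio was -0.03, 0.03 and -0.17 in WT and -1.52, -1.47 and -1.39 in Tnfaip2-/- samples (mean difference -1.40, exact permutation p = 0.1). Of the summed CPM of Id1, Id2 and Id3, Id1 made up 27.8%, 26.3% and 28.6% in the WT samples and 51.6%, 51.9% and 50.2% in the Tnfaip2-/- samples. The sum itself was 93.5, 94.1 and 95.0 CPM in WT and 58.5, 57.1 and 59.2 CPM in Tnfaip2-/- samples, lower in each Tnfaip2-/- sample although Id1 was higher. Id4, the remaining member of the family, was rare and higher, with 1.46, 2.28 and 2.13 CPM in WT and 3.30, 3.33 and 2.66 CPM in Tnfaip2-/- samples and no overlap (log2 fold change 0.66, adjusted p = 5.51e-04, edgeR).

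**Figure D3:**
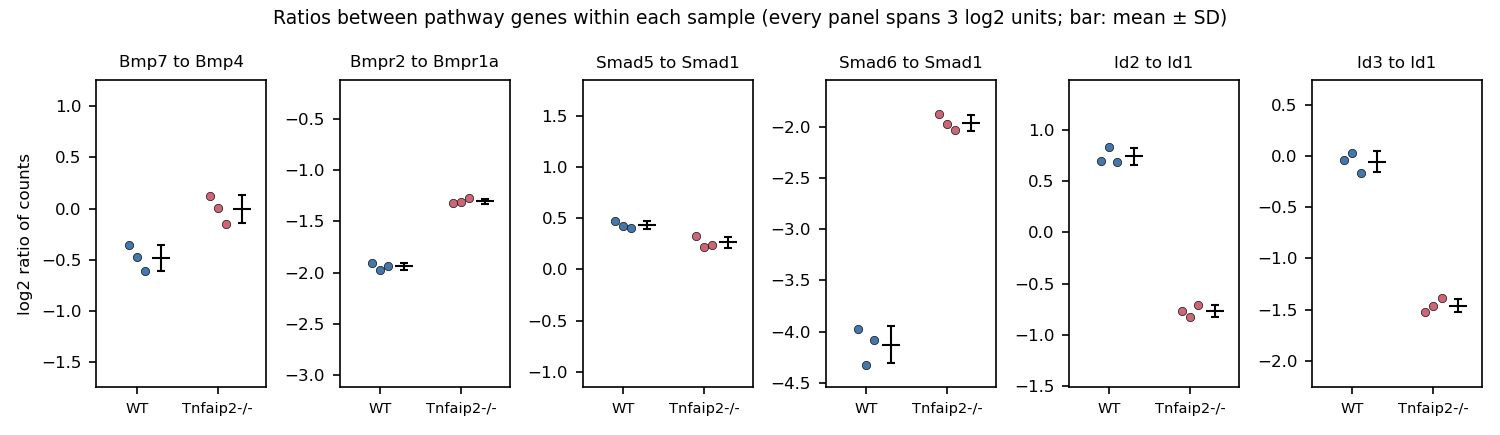
Log2 ratio of the counts of pathway gene pairs in each WT (blue) and Tnfaip2-/- (red) sample, with mean and SD; all panels span 3 log2 units, so that distances can be compared between them. The genotypes do not overlap in any panel; the difference of the means is 2.16 for Smad6 to Smad1 and -1.51 for Id2 to Id1, but only -0.17 for Smad5 to Smad1.

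Known BMP targets outside the Id family were divided as well. Of 15 target genes, Id1, Id2, Id3, Smad6 and Smad7 included, 12 were tested, 6 were higher and 6 were lower, with a median log2 fold change of -0.15; Atoh8, Dlx5 and Gata3 were under the filter. Outside the Id family, Smad6, Bambi, Hand1 and Gata2 were higher and Smad7, Msx1, Msx2 and Tfap2a were lower. The groups overlapped for Bambi, and its call was lost in 6 of 14 alternatives. The homeobox genes Msx1 and Msx2, which act in mesoderm, limb and neural crest, had the strongest decreases. Msx1 measured 3.79, 4.47 and 4.17 CPM in WT and 1.28, 1.05 and 1.31 CPM in Tnfaip2-/- samples (log2 fold change -1.77, SE 0.167, adjusted p = 6.16e-13, edgeR). Msx2 measured 4.19, 3.04 and 4.60 CPM in WT and 1.36, 1.05 and 1.49 CPM in Tnfaip2-/- samples (log2 fold change -1.60, SE 0.179, adjusted p = 8.99e-11, edgeR). For both, every WT sample exceeded every Tnfaip2-/- sample at least 2-fold. Hand1 and Gata2, transcription factor genes of mesoderm and trophoblast, were singled out after their values were seen. Hand1 was at 0.353, 0.357 and 0.383 CPM in WT and 0.968, 0.959 and 1.80 CPM in Tnfaip2-/- samples (log2 fold change 1.75, SE 0.317, adjusted p = 4.42e-06, edgeR). Gata2 was at 0.221, 0.447 and 0.255 CPM in WT and 0.572, 0.868 and 0.812 CPM in Tnfaip2-/- samples (log2 fold change 1.27, SE 0.357, adjusted p = 0.00170, edgeR). Both were scarce, and every Tnfaip2-/- sample was above every WT sample. The summed CPM of the targets was 171, 169.8 and 169 in WT and 124, 124 and 125 in Tnfaip2-/- samples, with Smad7 the most abundant gene.

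The genes encoding the E proteins that ID proteins hold inactive were lower as well. All 3 genes, Tcf3, Tcf4 and Tcf12, were tested and all were lower, with a median log2 fold change of -0.36. Tcf3, which encodes E12 and E47, measured 244, 242 and 228 CPM in WT and 146, 146 and 147 CPM in Tnfaip2-/- samples (log2 fold change -0.70, SE 0.0286, adjusted p = 6.17e-26, edgeR). Tcf4, which encodes E2-2, measured 34.2, 38.4 and 38.8 CPM in WT and 32.0, 29.1 and 25.8 CPM in Tnfaip2-/- samples (log2 fold change -0.36, adjusted p = 1.90e-06, edgeR). Neither gene had overlapping groups, and the summed CPM of the list was 351, 356 and 339.7 in WT and 242, 235 and 234 in Tnfaip2-/- samples.

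Outside the cell, the gene for follistatin, which binds activins tightly and several BMPs, fell strongly. Fst measured 31.6, 33.9 and 33.6 CPM in WT and 4.80, 4.43 and 4.69 CPM in Tnfaip2-/- samples, 7.11-fold lower with no overlap (log2 fold change -2.83, SE 0.0748, adjusted p = 2.61e-33, edgeR). Of 19 genes for extracellular antagonists and modulators, 13 were tested, 3 were higher, 7 were lower and 3, Nog, Bmper and Dand5, did not pass the test, with a median log2 fold change of -0.35; DESeq2 called 1 higher. Tll1, which encodes a protease that cleaves the antagonist chordin, measured 1.63, 1.79 and 1.45 CPM in WT and 0.308, 0.685 and 0.406 CPM in Tnfaip2-/- samples (log2 fold change -1.79, adjusted p = 1.38e-07, edgeR). Fstl3, a relative of follistatin, went the other way, with 0.662, 0.581 and 0.128 CPM in WT and 1.58, 1.87 and 2.21 CPM in Tnfaip2-/- samples (log2 fold change 2.05, adjusted p = 1.99e-08, edgeR). WT replicate 3 held 3 Fstl3 counts, against 15 and 13 in the other WT samples, and 47.3% of the Fstl3 exon bases lie opposite Prss57, which had 3 counts over all 6 samples. Nbl1, encoding a BMP antagonist of the DAN family, was at 0.927, 0.536 and 0.979 CPM in WT and 1.28, 1.74 and 1.31 CPM in Tnfaip2-/- samples (log2 fold change 0.81, adjusted p = 0.00351, edgeR), a call lost with DESeq2 (adjusted p = 0.0621, range over 14 alternatives 0.00221 to 0.0621). The summed CPM of the list was 224, 229 and 227 in WT and 144, 139.5 and 139 in Tnfaip2-/- samples, with Fstl1 the most abundant gene. Over all lists without the 10 members, 43 of 62 genes were tested, 13 were higher and 25 were lower, with a median log2 fold change of -0.25, against 0.00 over all tested genes. The shares to set beside the counts of this and each pathway list are those over all tested genes, 34.0% higher and 33.7% lower.

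Levels of different genes were compared as CPM per kb of exon, counting every base that lies in an exon of any annotated transcript. This length can exceed that of the transcript expressed, so the order of the genes depends on the annotation. In WT EBs Id1 was highest at 22.4 ± 1.04 CPM per kb, followed by Bmpr1a at 18.8 ± 0.150, Id2 at 17.8 ± 0.420 and Id3 at 13.9 ± 0.379 CPM per kb. Smad5 and Smad1 formed the middle of the order at 6.91 ± 0.128 and 6.07 ± 0.133 CPM per kb. Bmp4 at 2.33 ± 0.190, Bmpr2 at 1.73 ± 0.0315, Bmp7 at 0.933 ± 0.0116 and Smad6 at 0.682 ± 0.0848 CPM per kb were lowest, and no neighbours in this order shared sample values. In Tnfaip2-/- EBs Id1 and Bmpr1a were still highest at 25.7 ± 0.270 and 17.9 ± 0.616 CPM per kb, but the other genes lay closer together. Id2 stood at 7.20 ± 0.310 and Id3 at 6.06 ± 0.231 CPM per kb, and the samples of Id3 overlapped those of Bmp4 at 5.46 ± 0.380 CPM per kb. Smad5 at 5.05 ± 0.215 and Smad1 at 4.98 ± 0.157 CPM per kb overlapped each other, and both overlapped Bmp4. Bmp7 at 3.03 ± 0.0803 CPM per kb moved above Bmpr2 at 2.56 ± 0.0476 CPM per kb, which overlapped Smad6 at 2.50 ± 0.0986 CPM per kb. Few bases of the 10 genes are shared with other genes: 3.96% of the exon bases of Bmp4, 4.57% of Bmpr1a and 1.35% of Smad5 overlap other annotated genes, none of which had more than 7 counts over all 6 samples.

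**Figure D4:**
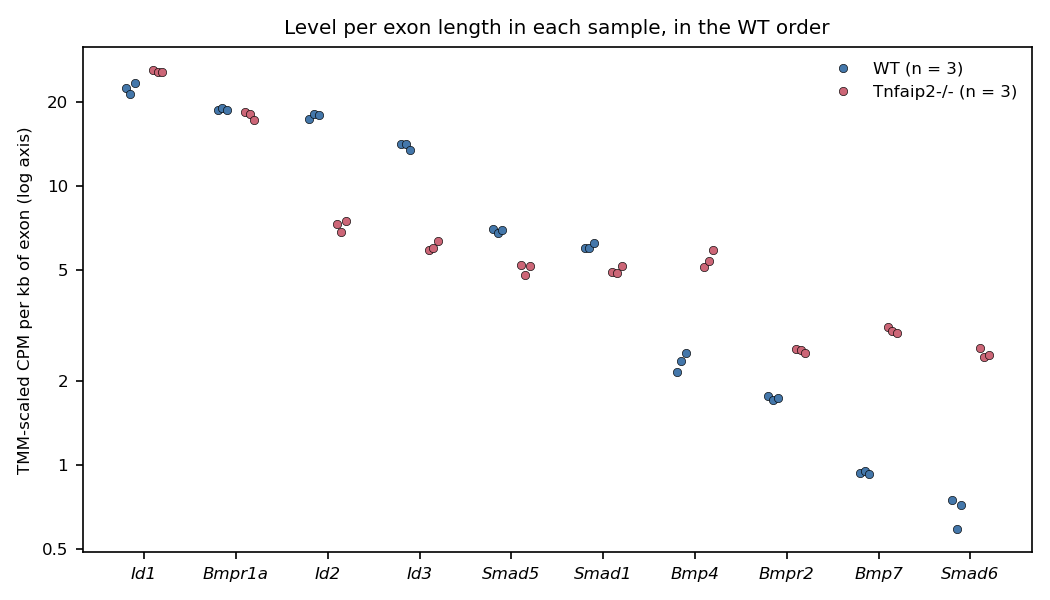
CPM per kb of exon (log axis) of the 10 genes in each WT (blue) and Tnfaip2-/- (red) sample, in the order of the WT means. WT values run from 22.4 for Id1 down to 0.682 for Smad6, and the Tnfaip2-/- values span a smaller range, from 25.7 to 2.50 CPM per kb.

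Markers of the cell types that EBs can hold also differed between the genotypes, and their part in the changes of the BMP pathway genes was not tested. The most abundant gene of a list is the one with the highest mean CPM over all 6 samples. Over all tested genes, 34.0% were called higher and 33.7% lower, against which the marker counts are to be read. Pluripotency markers remained abundant in all samples, with a summed CPM of 2041, 2028 and 2037 in WT and 2067, 2072 and 2086 in Tnfaip2-/- samples; 6 of 10 were higher and 4 lower, among the latter the most abundant, Pou5f1 (log2 fold change -0.86, adjusted p = 1.60e-32, edgeR). Markers of the primitive streak and nascent mesoderm, tissues in which BMP signals act, were all lower, 10 of 10. Their summed CPM was 103, 103 and 101 in WT and 23.1, 20.2 and 24.4 in Tnfaip2-/- samples, with Eomes the most abundant. T (brachyury), the defining marker, singled out after its values were seen, had 774, 732 and 866 counts in WT and 5, 3 and 1 counts in Tnfaip2-/- samples. Markers of lateral and extraembryonic mesoderm were scarce, with a summed CPM of 4.59, 5.18 and 4.72 in WT and 2.77, 2.69 and 4.28 in Tnfaip2-/- samples; of 5 tested of 6, 2 were higher and 3 lower, and Etv2 was the most abundant.

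Ectoderm and extraembryonic markers were mixed in direction. Neural ectoderm markers had a summed CPM of 118, 117 and 109 in WT and 49.6, 48.9 and 49.2 in Tnfaip2-/- samples, and all 5 tested of 7 were lower, Sox1 being the most abundant. Trophoblast markers were low in both genotypes, with a summed CPM of 4.72, 4.06 and 4.04 in WT and 9.68, 9.09 and 9.02 in Tnfaip2-/- samples and 4 of 5 tested of 8 higher. Ascl2 was the most abundant of them, Tpbpa and Prl3d1 were at 0 in every sample, which allows up to 3 counts in each (0.138 CPM in the shallowest), and Cdx2, singled out after its values were seen, was lower, with 42, 37 and 28 counts in WT and 1, 2 and 0 counts in Tnfaip2-/- samples. Primitive and visceral endoderm markers had a summed CPM of 149, 151 and 145 in WT and 126, 123 and 125 in Tnfaip2-/- samples, with 2 of 13 higher, 8 lower, and Cubn the most abundant, whose call was lost in 9 of 14 alternatives (adjusted p from 0.01 to 0.17). Of the 13, 5 were at least 2-fold lower, namely Foxa2, Afp, Ttr, Apoa1 and Apob, and 0 were at least 2-fold higher. Surface ectoderm markers summed to 21.6, 24.8 and 22.6 CPM in WT and 16.1, 17.0 and 18.9 CPM in Tnfaip2-/- samples, with Grhl2 the most abundant. Of 3 tested of 7, 1 was higher and 2 were lower. The higher gene, Dlx3, was singled out after its values were seen. It measured 0.485, 0.581 and 0.341 CPM in WT and 4.75, 6.26 and 6.13 CPM in Tnfaip2-/- samples (log2 fold change 3.60, adjusted p = 1.50e-20, edgeR). Fibroblast markers had a summed CPM of 13.1, 13.8 and 12.8 in WT and 11.5, 11.4 and 11.9 in Tnfaip2-/- samples; of 5 tested of 8, 1 was higher and 2 were lower, and the call of the higher gene, Pdgfrb, also the most abundant, was lost with DESeq2 (adjusted p = 0.0961, range over 14 alternatives 0.00365 to 0.0961). Hand1, Gata2, Tfap2a and Gata3 stand both on a marker list and on the list of BMP targets.

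**Figure D5:**
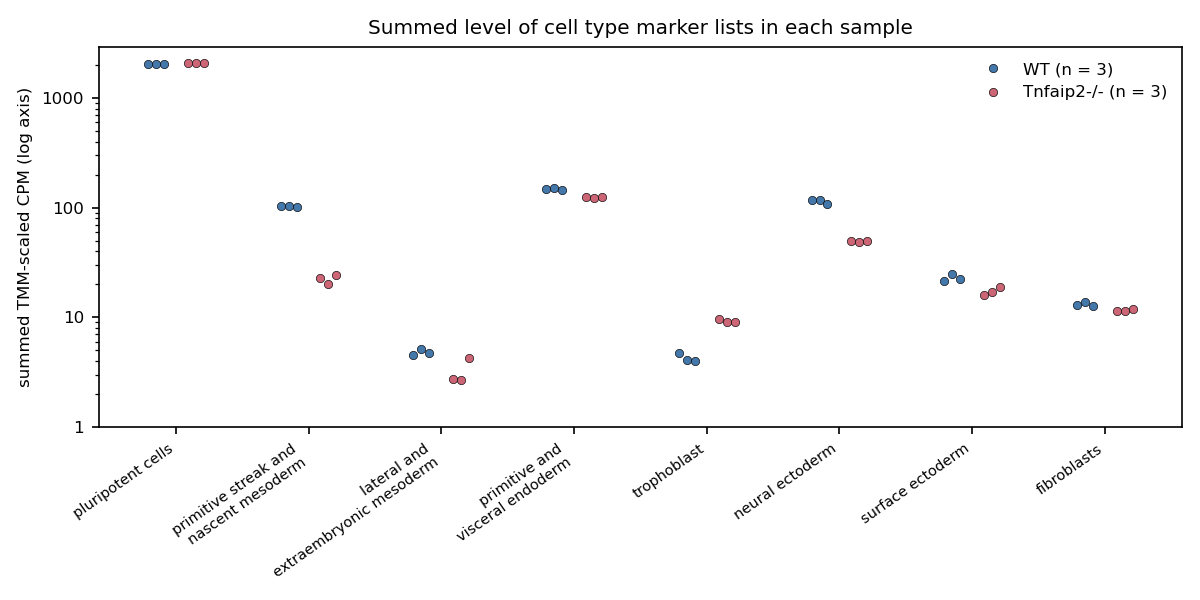
Summed TMM-scaled CPM (log axis) of each cell type marker list in the WT (blue) and Tnfaip2-/- (red) samples. The primitive streak list averages 102 CPM in WT and 22.5 CPM in Tnfaip2-/- samples and the neural list 114 and 49.2 CPM, whereas the trophoblast list averages 4.28 and 9.26 CPM.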

How the data were processed

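RNA-seq counts were analyzed for 3 WT and 3 Tnfaip2-/- EB samples. The authors deposited counts of uniquely mapped reads per gene, without normalization. Per the submitters' processing notes, reads were converted with bcl2fastq, for which the notes and the paper give different versions, mapped to GRCm38 with TopHat2 2.1.0 and counted with featureCounts 1.5.0 on Ensembl annotation. Whether counting took strand into account is not stated, and the TruSeq RNA v2 kit is unstranded, so genes that overlap on opposite strands may share reads. Totals per sample ranged from 21765931 to 23804489 counts.

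Genes were filtered with filterByExpr (minimum count 10, minimum total 15), scaled by TMM and tested with the edgeR 4.0.16 quasi-likelihood F test in R 4.3.3, with Benjamini-Hochberg adjustment over 17849 genes and a threshold of 0.05. Standard errors were derived from the test statistic. The fit was tested on simulated data with 50 genes changed at each of 1.25-, 1.5-, 2- and 4-fold and 17413 unchanged. It called 33, 44, 49 and 50 of the changed genes and 6 unchanged genes. Far fewer genes changed there than in these data, where 67.7% were called, so the fit was not tested at such a share. Ratios were compared by two-sided exact permutation tests (SciPy 1.17.1, Python 3.11.15). Gene positions and exon lengths came from GENCODE (GRCm38).

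The members and lists were chosen with earlier results of these data known. Named genes are the 10 members, Tnfaip2, the paralogues Bmp2, Bmpr1b, Acvr1, Smad9, Smad4, Smad7 and Id4, and per pathway list up to 2 genes with the largest increase and up to 2 with the largest decrease among called genes that averaged 1 CPM or more. The lists covered ligands, receptors and co-receptors, SMADs and intracellular regulators, extracellular antagonists and modulators, targets, and E proteins, with 8 lists of cell type markers. Alternatives were DESeq2 1.42.0, RLE, upper quartile and library size scaling, no filter, a filter at 1 CPM, the legacy form of the fit, a test against a 1.5-fold change, replicate number as a block, and leaving out each of the 6 samples. Intervals and limits from counts cover counting error only.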

Additional observations from a re-analysis of the deposited data

How the results depend on the processing

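Over 15 alternatives, no log2 fold change of the 45 genes followed was reversed, and 611 of 671 gene values neither turned nor crossed the threshold. In the test against a 1.5-fold change 23 genes lost their call, and in another alternative 9 genes did: Bmpr1a, Bambi, Bmpr1b, Hjv, Bmp6, Bmp8b, Nbl1, Cubn and Pdgfrb. The members other than Bmpr1a kept their call in all 14 alternatives besides the 1.5-fold test. Of 341 counts and ratios, 320 stayed the same, which for a count meant within 1.5-fold of its main value and for a ratio only that its sign was kept.

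The test against a 1.5-fold change, which by construction asks for more than any change, called 2798 genes (1615 higher, 1183 lower) and 5 members (3 higher, 2 lower). It called 2 ligands higher, 2 receptors higher and 0 lower, 1 SMAD gene higher and 0 lower, 1 antagonist higher and 4 lower, 2 targets higher and 1 E protein lower. DESeq2 called 2 ligands higher, 3 receptors lower and 1 antagonist higher; the cause was not tested. Ligands called lower numbered 2 without the expression filter and 0 with the 1 CPM filter, which tests fewer genes, and ranged from 1 to 2 when a sample was left out, with 2 without WT replicate 3. Genes called ranged from 11537 to 11744 when a sample was left out.

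With the replicate block the fit called 11841 genes (5937 higher, 5904 lower) and 9 members, Bmpr1a losing its call (adjusted p = 0.0904). Pairing of samples by replicate number is not given in the labels: correlations across 15711 genes of deviations from the group mean were -0.058, -0.051 and -0.063 for samples of the same number and 0.021 to 0.038 for others, and genes are not independent replicates. Bmp2, Bmp6 and other genes near 1 CPM rest on few counts, and depth limits their precision.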
